A study of Mus musculus with 24 samples.

Results

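The AP-1 transcription factors of the Fos and Jun families, their bZIP relative *Atf3*, and the AP-1-linked epithelial gene *Sprr1a* were followed in the liver of lipodystrophic and control mice, with or without FGF21 gene transfer. The 9 genes (*Fos*, *Fosb*, *Fosl1*, *Fosl2*, *Jun*, *Junb*, *Jund*, *Atf3*, and *Sprr1a*) were taken by symbol from the 23972 genes with counts, and all 9 were in the table. They were picked with their levels in the 4 groups already known, so their levels and fold changes stand here as a description, without p-values. All mice were females with floxed *Lmna* (Lmna fl/fl), the gene for lamin A/C, were kept at 22°C, were 12 to 14 weeks old at the start, and ate a diet with 60% of calories from fat for 4 weeks before a retro-orbital injection and for 8 weeks after it. *Lmna*ADKO mice also carried Adipoq-Cre, which is driven by the adiponectin promoter and acts in adipocytes. Hepatocytes thus carry the floxed but undeleted gene, and mean *Lmna* was 26.7 CPM (counts scaled to a library of 1000000 reads) in *Lmna*ADKO vehicle libraries against 18.6 in control vehicle libraries. Control mice lacked Cre, and a Cre-positive control without floxed *Lmna* is not among the groups. Treated mice received AAV8 encoding mouse FGF21, which the labels call a rescue, and the others received vehicle (PBS with Pluronic). The groups held 7 control vehicle, 3 control FGF21, 6 *Lmna*ADKO vehicle, and 8 *Lmna*ADKO FGF21 libraries, each from the liver of 1 mouse.

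AP-1 is a dimer of bZIP proteins. Jun proteins pair with each other or with Fos proteins, Fos proteins need a Jun partner, and Atf3 pairs with Jun proteins or with itself. Most of these genes are immediate early genes, whose mRNA appears within minutes of growth factor, cytokine, or stress signaling and decays quickly, so that single time points give snapshots. In liver, c-Jun is known for its role in hepatocyte proliferation during regeneration, and *Atf3* is a stress-response gene. *Sprr1a* encodes a small proline-rich protein of the cornified envelope of squamous epithelia, and it is also known from injured neurons and stressed heart muscle.

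The total of counts on genes per library was 19863304 to 21510054, and 3 counts, used as the floor, corresponded to 0.124 to 0.176 CPM per library. Values are counts of reads per gene made and deposited by the authors without normalization. CPM were computed here with TMM-scaled library sizes, and log2 CPM with a prior count of 2. A gene was called when the adjusted p of edgeR's quasi-likelihood test, over all genes, was under 0.05 and the fold change was above 1.5. In 3 libraries (control vehicle 3, control FGF21 3, and *Lmna*ADKO FGF21 7), log2 CPM fell with gene length, with slopes from -0.331 to -0.154 against -0.109 to 0.128 in the other 21. Liver *Fgf21* counts did not separate the treated groups from vehicle. Their means were 4.01 CPM in control vehicle, 4.78 in control FGF21, 7.99 in *Lmna*ADKO vehicle, and 5.36 in *Lmna*ADKO FGF21 libraries. The paper, however, reports that plasma FGF21 rose after gene transfer in this experiment, and more so in *Lmna*ADKO mice than in controls. Whether RNA from the transferred gene was counted under *Fgf21* was not tested, so these counts do not show whether the transfer worked. Because this is RNA of whole liver, fewer cells of a type and less RNA per cell cannot be told apart.

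The vehicle libraries compare the genotypes in the absence of gene transfer. Of these, 6 of 7 control libraries have 3-digit animal numbers and 5 of 6 *Lmna*ADKO libraries have 4-digit ones. Genotype and the series of animal numbers thus largely coincide in this contrast. Of the 9 genes, 5 passed the call rule and all 5 were higher in *Lmna*ADKO livers: *Sprr1a*, *Fosl1*, *Fosb*, *Jun*, and *Atf3*. Over all genes, 8.48% were called in this contrast and 5.12% were called higher. The log2 fold change was above 0 for 8 of the 9 genes, with a median of 1.17 against 0.00265 over all genes tested. *Junb* was the exception at -0.47. With the series of animal numbers as a covariate, 3 of the 9 genes were called. Over all genes it was 1604, against 2033 without the covariate. With FGF21, 2 of the 9 passed, *Jun* and *Sprr1a*, against 2.88% of all genes, and the median over the 9 genes was 0.83. Nothing is read from these shares, or from groups that do not overlap below, since the genes were chosen on the same contrasts. How often groups separate in this way over all genes is not given here.

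**Figure D1:**
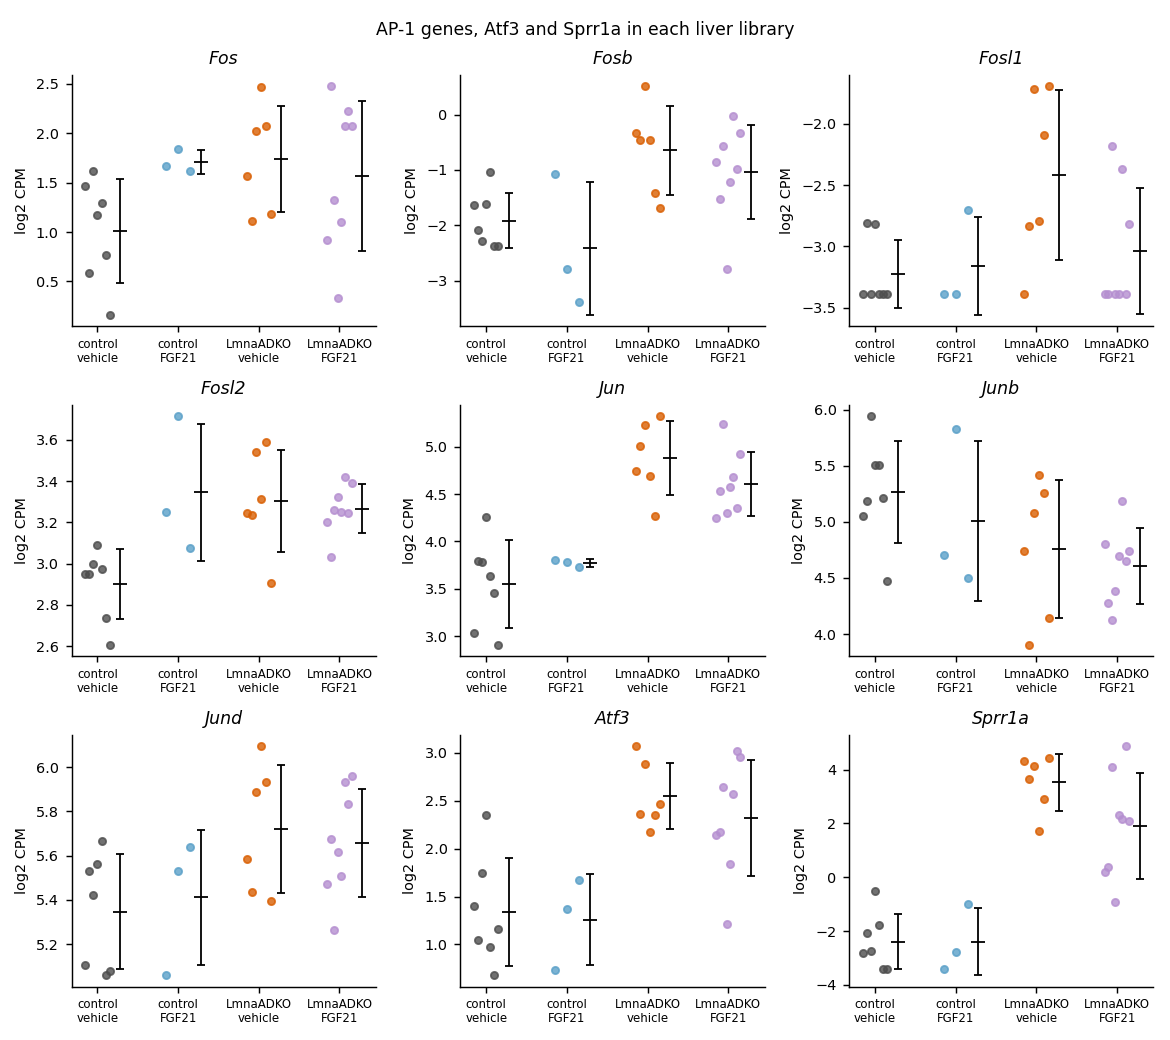
Level of each of the 9 genes in each liver library, as log2 CPM with a prior count of 2 on separate vertical axes. Points are libraries (control vehicle n = 7, control FGF21 n = 3, LmnaADKO vehicle n = 6, LmnaADKO FGF21 n = 8), and bars give the group mean and SD. The LmnaADKO points of Jun and Sprr1a lie above all controls of the same treatment, whereas the points of Junb, Fos and Jund intermingle.

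*Sprr1a* differed most of the 9 genes. The gene lies at chr3:92483952-92485895 on the minus strand (GRCm38), has 2 exons, and sits in the epidermal differentiation cluster. In control vehicle livers it ranged from 0 to 0.598 CPM with a median of 0.0553 CPM, and 5 of 7 libraries had at most 3 counts. The 3 control FGF21 libraries had 0, 0.0499, and 0.408 CPM. *Lmna*ADKO vehicle livers ranged from 3.16 to 21.6 CPM with a median of 14.9, and all 6 lay above every control of that treatment. *Lmna*ADKO FGF21 livers were more spread, from 0.435 to 29.0 CPM with a median of 4.27, and all 8 lay above the 3 controls, although the lowest of them, with 9 counts, lay below the control vehicle library with 13 counts. In group means, *Sprr1a* was 0.148 ± 0.211 CPM (SD, n = 7) in control vehicle and 13.7 ± 7.33 CPM (n = 6) in *Lmna*ADKO vehicle livers, a log2 fold change of 6.44 (SE 1.04). Summed counts were 1854 against 22, a ratio of 91.4 with an exact 95% interval of 60.2 to 146 that covers counting error only. With FGF21 the means were 0.153 ± 0.222 CPM (n = 3) and 7.77 ± 10.1 CPM (n = 8), a log2 fold change of 5.74 (SE 1.55). The call with vehicle stood in all 31 alternative settings, and the call with FGF21 was lost in 9 of 32, among them without any one of the 3 control FGF21 libraries and without *Lmna*ADKO FGF21 library 3. Without the 3 libraries with a length trend the log2 fold change with FGF21 was 7.32, and without control FGF21 library 3 alone, the one with 0.408 CPM, it was 7.99.

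The sequence before the start of *Sprr1a* is shown because it holds the letters of the consensus AP-1 site. These are the 250 bases upstream of the RefSeq start (chr3:92485882-92486131, GRCm38.p6, minus strand, read 5′ to 3′), with motif matches in capitals.
*Sprr1a*: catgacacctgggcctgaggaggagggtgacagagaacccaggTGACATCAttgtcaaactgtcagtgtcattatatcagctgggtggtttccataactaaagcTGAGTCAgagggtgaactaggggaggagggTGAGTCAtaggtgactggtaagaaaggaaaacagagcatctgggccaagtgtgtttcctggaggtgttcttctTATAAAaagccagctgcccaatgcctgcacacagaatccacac
The consensus AP-1 site, TGACTCA on one strand and TGAGTCA on the other, occurred at positions -146 and -116 from the start, counted with -1 as the last base before it. A TATA motif (TATAAA) began at -43. At -207 began TGACATCA, a variant of the cyclic AMP response element (TGACGTCA) that is known from the *Jun* promoter. Of 32851 RefSeq windows, each from 250 bases before to 50 bases after a start and searched on both strands, 5.20% held an AP-1 site, 3.62% held TGACATCA, 1.79% held TGACGTCA, and 13.6% held TATAAA. Windows were found for 8 of the 9 genes, and *Sprr1a* was the only one of them with an AP-1 site. Not all windows lie at the outermost annotated start. The window of *Jund* (chr8:70697489-70697788) lies upstream of the annotated start at 70698949. That of *Atf3* (chr1:191183284-191183583, minus strand) lies inside the annotated gene, which begins at 191218039. The absence of a site thus covers these windows only. These matches describe the letters in the window, and binding was not measured here.

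The genes around *Sprr1a* were at low levels. Of the 12 genes in the table within 500000 bases of it, 1 (*Gm9774*) had a mean of at least 1 CPM, and its log2 fold change between *Lmna*ADKO and control livers under vehicle was 0.08. The 3 neighbors that passed the call rule, *Ivl*, *Smcp*, and *Lce6a*, had at most 2, 2, and 4 counts in any library. *Sprr1b*, the closest paralog, reached at most 4 counts, and *Sprr2a1*, *Sprr2a2*, *Sprr2a3*, and *Sprr2b* at most 1, 13, 1, and 3. Of the 22 small proline-rich and cornified envelope genes listed, 11 were in the table, and in the vehicle contrast 1 was called higher (*Ivl*) and 1 lower. The latter was *Tgm1*, a transglutaminase that cross-links envelope proteins, with 7.41 ± 2.63 CPM (SD, n = 6) in *Lmna*ADKO against 15.3 ± 5.68 CPM (n = 7) in control livers (log2 fold change -1.05, SE 0.287, adjusted p = 0.0146). *Krt5* and *Krt14*, the defining keratins of basal keratinocytes, had at most 2 counts and 1 count in any library.

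*Jun* and *Atf3* followed. *Jun*, which encodes c-Jun, is an intronless gene at chr4:95049034-95052222 on the minus strand. It ranged from 7.41 to 19.0 CPM (median 12.3) in control vehicle and from 19.2 to 40.0 CPM (median 29.4) in *Lmna*ADKO vehicle livers, and the groups did not overlap. The 3 control FGF21 libraries had 13.2, 13.7, and 13.9 CPM, and the 8 *Lmna*ADKO FGF21 libraries ranged from 18.8 to 37.7 CPM (median 23.4), again without overlap. *Jun* thus was 12.2 ± 3.94 CPM (SD, n = 7) in control vehicle and 30.2 ± 7.82 CPM (n = 6) in *Lmna*ADKO vehicle livers, 2.48-fold higher (log2 fold change 1.31, SE 0.197), and 1.83-fold higher in *Lmna*ADKO livers with FGF21 (log2 fold change 0.88, SE 0.251). In the vehicle contrast its call stood in each of 31 alternative settings, whereas the call with FGF21 was lost in 21 of 32, among them without any one of the 3 control FGF21 libraries. Its log2 fold change with FGF21 stayed between 0.76 and 0.92 in those settings. An antisense gene, *Junos*, overlaps *Jun* and averaged 0.137 CPM, and by the labels the libraries were strand-specific.

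The 250 bases before the RefSeq start of *Jun* (chr4:95052223-95052472, GRCm38.p6, minus strand, 5′ to 3′) are shown because the *Jun* promoter is a textbook case of a Jun gene that carries an AP-1-like element of its own. The capitals mark the match to TGACATCA at position -45, the motif that *Sprr1a* also holds.
*Jun*: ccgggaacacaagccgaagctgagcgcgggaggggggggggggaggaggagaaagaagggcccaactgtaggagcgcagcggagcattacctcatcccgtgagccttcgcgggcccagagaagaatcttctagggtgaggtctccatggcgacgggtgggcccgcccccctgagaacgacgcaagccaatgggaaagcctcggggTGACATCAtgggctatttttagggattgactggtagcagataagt
Neither the canonical cyclic AMP response element nor a CArG box, the serum response factor motif, was found in any of the 8 windows as spelled here. Sequence farther than 250 bases upstream was not searched. TATAAA occurred also in the windows of *Fos*, at -33, and of *Junb*, where it began at position 1, the start itself.

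*Atf3* (chr1:191170296-191218039, minus strand) encodes a stress-induced repressor and activator that can pair with c-Jun. It ranged from 1.51 to 5.02 CPM (median 2.14) in control vehicle and from 4.43 to 8.29 CPM (median 5.24) in *Lmna*ADKO vehicle livers. The highest control, library 4, overlapped the *Lmna*ADKO group, and 4 of the 6 *Lmna*ADKO values exceeded all controls. The control FGF21 libraries had 1.57, 2.50, and 3.09 CPM, and 7 of the 8 *Lmna*ADKO FGF21 libraries (2.22 to 7.99 CPM, median 5.14) lay above them. The log2 fold change was 1.17 (SE 0.273) with vehicle and 1.15 (SE 0.358) with FGF21. The call with vehicle stood in all 31 alternatives. With FGF21 *Atf3* was not called, although it was in 6 of 32 alternatives.

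The Fos genes were at low levels. *Fos*, the prototype immediate early gene, had a median of 2.16 CPM (1.02 to 2.98) in control vehicle and 3.42 CPM (2.07 to 5.45) in *Lmna*ADKO vehicle livers, with a log2 fold change of 0.76 (SE 0.307) that was not called. With FGF21, the 3 controls had 2.97, 3.09, and 3.50 CPM and the *Lmna*ADKO livers ranged from 1.16 to 5.48 CPM around them, with a log2 fold change of 0.01 (SE 0.370). *Fosb* had 2 to 8 counts in control vehicle and 5 to 32 counts in *Lmna*ADKO vehicle libraries, and its mean was 0.185 ± 0.108 CPM (SD, n = 7) against 0.631 ± 0.400 CPM (n = 6), a log2 fold change of 1.73 (SE 0.515). Its call was lost without *Lmna*ADKO vehicle library 3 and with the series of animal numbers as a covariate. *Fosl1*, which encodes Fra-1, was barely detectable, with at most 1 count in any control library and at most 5 in any *Lmna*ADKO library. Summed over the group, it had 15 counts in *Lmna*ADKO vehicle and 2 in control vehicle libraries, a ratio of 8.14 with an exact 95% counting interval of 1.89 to 73.3, and its call was lost in 13 of 30 alternatives. *Fosl2*, which encodes Fra-2, was steadier. It had 5.99 to 8.42 CPM (median 7.64) in control vehicle and 7.39 to 11.9 CPM (median 9.62) in *Lmna*ADKO vehicle livers, and 5 of the 6 lay above every control, but the log2 fold change of 0.42 (SE 0.117) was under the fold threshold. The control FGF21 libraries had 8.33, 9.41, and 13.0 CPM, and the *Lmna*ADKO FGF21 libraries 8.10 to 10.6 CPM, so that the mean of *Fosl2* was lowest in control vehicle livers.

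*Junb* and *Jund* did not share the difference of *Jun*. *Junb*, which encodes JunB and can act against c-Jun on shared sites, ranged from 22.2 to 61.4 CPM (median 37.0) in control vehicle and from 14.9 to 42.7 CPM (median 30.1) in *Lmna*ADKO vehicle livers. Its log2 fold change was -0.47 (SE 0.265). With FGF21 it was -0.49 (SE 0.314), but the control FGF21 libraries had 22.5, 26.0, and 56.5 CPM, and without the last of these, library 2, the value was 0.04. *Junb* overlaps *Prdx2* on the opposite strand, which averaged 123 CPM. *Jund*, which encodes JunD and is regarded as the constitutive family member, ranged from 33.3 to 50.7 CPM in control vehicle and from 41.9 to 68.2 CPM in *Lmna*ADKO vehicle livers, with a log2 fold change of 0.38 (SE 0.138) with vehicle and 0.24 (SE 0.171) with FGF21.

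Compared per length of transcript, as CPM per kilobase of exons and averaged over libraries, *Jund* was the highest of the 9 genes at 28.6, followed by *Junb* at 13.7, *Sprr1a* at 7.53, *Jun* at 6.61, *Atf3* at 1.99, *Fos* at 1.24, *Fosl2* at 0.941, *Fosb* at 0.0612, and *Fosl1* at 0.0220. The place of *Sprr1a* came from *Lmna*ADKO libraries, since its group mean was 0.184 CPM per kilobase in control vehicle and 16.9 in *Lmna*ADKO vehicle livers. Within the Jun family, *Jun* made up 8.20% ± 1.5 (SD, n = 7) of the family's CPM per kilobase in control vehicle and 18.3% ± 6.71 (n = 6) in *Lmna*ADKO vehicle livers. *Junb* made up 37.5% ± 5.51 and 22.5% ± 5.35, and these shares did not overlap (29.9% to 47.1% against 15.2% to 28.05%). The share of *Jund* was 54.3% ± 5.6 and 59.2% ± 2.43. With FGF21, the share of *Jun* was 9.75% ± 2.33 (n = 3) in controls and 16.1% ± 5.01 (n = 8) in *Lmna*ADKO livers.

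The ratio of *Jun* to *Junb* CPM in a library does not depend on how libraries are scaled. It ranged from 0.223 to 0.418 (mean 0.309) in control vehicle and from 0.502 to 2.27 (mean 1.27) in *Lmna*ADKO vehicle livers. In control FGF21 livers it ranged from 0.242 to 0.584 (mean 0.454), and in *Lmna*ADKO FGF21 livers from 0.679 to 2.17 (mean 1.07). The genotypes did not overlap in either treatment. *Jun* and *Junb* had the highest and lowest log2 fold changes of the Jun family in both genotype contrasts, so nothing is read from this separation.

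**Figure D2:**
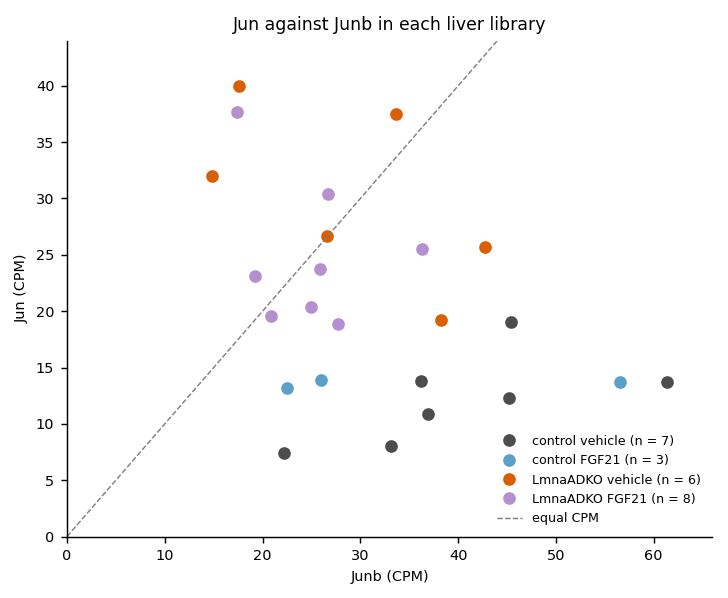
Jun CPM (vertical) against Junb CPM (horizontal) in each of the 24 liver libraries, colored by group, with a dashed line where both are equal. The 10 control points lie low and below the line, with ratios from 0.223 to 0.584, whereas LmnaADKO points lie higher, at ratios from 0.502 to 2.27.

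FGF21 and vehicle libraries of the same genotype were then set side by side. In control livers, edgeR and DESeq2 called 0 of the 9 genes between FGF21 and vehicle, and 5 were higher and 4 lower. Over all genes, 0.0542% were called in that contrast. *Fos* had a log2 fold change of 0.65 (SE 0.376) and *Fosl2* one of 0.47 (SE 0.144). All 3 control FGF21 libraries have 4-digit animal numbers and 6 of 7 control vehicle libraries have 3-digit ones. Treatment and the series of animal numbers thus cannot be told apart in controls. With only 3 control FGF21 libraries the genes near the floor depended on single libraries, since *Fosb* was -2.56 without library 1, and *Sprr1a* was -2.38 and *Fosl1* -1.74 without library 3. In *Lmna*ADKO livers, both again called 0 of 9, where 0% of all genes were called by edgeR, 15 by DESeq2, and 1608 had an unadjusted p under 0.05. All 9 log2 fold changes were below 0 in this contrast, with a median of -0.22. The sizes were -0.82 (SE 0.671) for *Sprr1a*, -0.46 (SE 0.451) for *Fosb*, -0.28 (SE 0.188) for *Jun*, -0.22 (SE 0.256) for *Junb*, and -0.17 (SE 0.256) for *Atf3*, and those of *Fos*, *Fosl2*, *Jund*, and *Atf3* were above 0 in at least 1 alternative. For *Atf3* that was the fit of only the libraries with 4-digit animal numbers, where it was 0.20. *Fosl1* had a value of -1.49 (SE 0.752) on 6 against 15 summed counts. For *Sprr1a*, 3 of the 8 FGF21 libraries lay below every vehicle library and 1 lay above, and 2 lay above the vehicle median. For *Jun*, 1 of 8 lay below every vehicle library and 2 lay above the vehicle median. The difference between the 2 genotype contrasts, tested as an interaction, called 0 of the 9 genes with either tool and 0.00417% of all genes. DESeq2 gave no adjusted p for 2 of the 9 genes in the interaction. It gave none for 1 of the 9 in each contrast of FGF21 with vehicle, so DESeq2 could not call those genes. All 4 contrasts share groups with each other, so the values of one are not independent of those of the next.

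**Figure D3:**
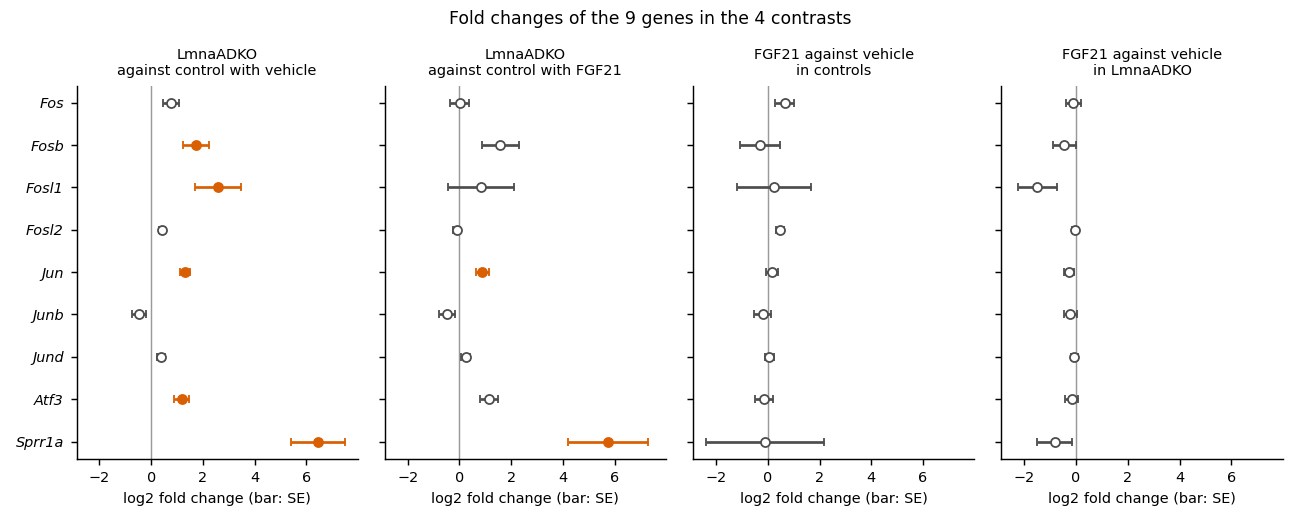
Log2 fold changes of the 9 genes (horizontal) in the 4 contrasts, from edgeR, with bars of 1 SE. Filled points passed the call rule (5, 2, 0 and 0 genes from left to right), and in the last panel all 9 points lie at or left of 0.

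Across libraries, members were compared after the group mean of log2 CPM was subtracted from each library, which leaves differences between mice of the same group. These correlations describe 24 libraries that share processing and depth differences, and they carry no p. *Fosl1* was left out for its low counts. Of the 28 pairs among the other 8 genes, 27 had a Pearson r above 0, with a median of 0.311.  *Fosl2* and *Junb* went together (r = 0.762, Spearman rho = 0.789), as did *Junb* and *Jund* (r = 0.655, rho = 0.614), and *Atf3* and *Sprr1a* (r = 0.725, rho = 0.642). *Jun* went with *Sprr1a* (r = 0.526, rho = 0.563) and not with *Junb* (r = 0.017, rho = 0.045). Without the 2 libraries farthest from the median, r was 0.692 for *Fosl2* and *Junb*, 0.604 for *Atf3* and *Sprr1a*, and 0.358 for *Jun* and *Sprr1a*. Within single groups, r of *Atf3* and *Sprr1a* was 0.654 over 7 control vehicle, 0.722 over 6 *Lmna*ADKO vehicle, and 0.769 over 8 *Lmna*ADKO FGF21 libraries. The control value rests on libraries with 0 to 13 counts of *Sprr1a*. The 3 libraries with a length trend include *Lmna*ADKO FGF21 7, which had the highest *Sprr1a*, and without those 3 libraries r of *Jun* and *Sprr1a* was 0.768.

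**Figure D4:**
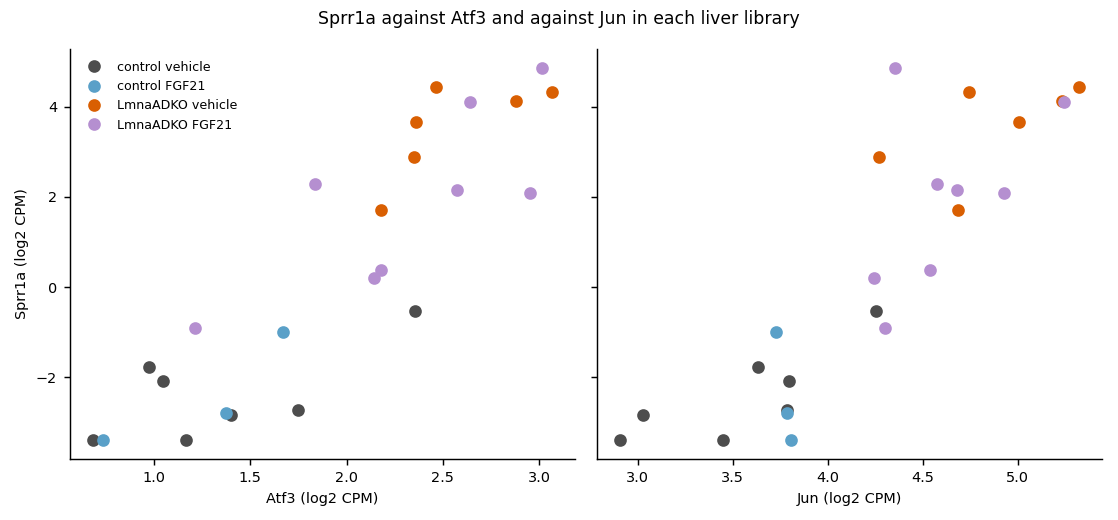
Sprr1a (vertical) against Atf3 (left) and Jun (right) in each of the 24 libraries, as log2 CPM with a prior count of 2, colored by group. Control points lie low in both panels, and among LmnaADKO FGF21 libraries those with more Atf3 tended to have more Sprr1a (r = 0.769, n = 8).

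The genes most like 4 of the members by this measure were looked up among the 12492 genes whose mean log2 CPM was 0 or more. For *Sprr1a* they were *Anxa5* (annexin A5, r = 0.917), *S100a11* (a calcium-binding S100 protein, r = 0.906), and *Ly6d* (a GPI-anchored surface protein, r = 0.906). In the vehicle contrast all 3 were higher in *Lmna*ADKO livers, *Anxa5* with 292 ± 81.3 CPM (SD, n = 6) against 88.8 ± 15.3 CPM (n = 7; log2 fold change 1.72, SE 0.261, adjusted p = 6.95e-05), *S100a11* with 35.8 ± 17.5 against 6.38 ± 1.97 CPM (2.48, SE 0.558, adjusted p = 0.0041), and *Ly6d* with 57.8 ± 29.9 against 6.00 ± 3.55 CPM (3.26, SE 0.702, adjusted p = 0.00295). With FGF21, *Anxa5* was called (1.35, SE 0.339, adjusted p = 0.0239). *S100a11* (1.64, SE 0.726, adjusted p = 0.253) and *Ly6d* (2.53, SE 0.954, adjusted p = 0.160) were not called with FGF21. For *Atf3* they were *Zmynd15* (r = 0.843), *Ap1s2* (r = 0.843), and *Nudt18* (r = 0.836), of which *Nudt18* was called higher in *Lmna*ADKO vehicle livers (log2 fold change 0.91, SE 0.185, adjusted p = 0.00121) and with FGF21 (1.01, SE 0.242, adjusted p = 0.0162). *Zmynd15* was called lower in *Lmna*ADKO livers with FGF21 (-0.64, SE 0.169, adjusted p = 0.0257), and with vehicle it was -0.42 (SE 0.143, adjusted p = 0.0470), under the fold threshold. For *Jun* they were *Mrc2* (a collagen receptor, r = 0.775), *Adamts2* (a procollagen protease, r = 0.753), and *Mmp2* (a gelatinase, r = 0.741), none of which was called between genotypes, although *Mrc2* with vehicle (log2 fold change 0.92, SE 0.338, adjusted p = 0.0689) was called in 7 alternatives, DESeq2 among them. For *Fos* they were *Pltp* (phospholipid transfer protein, r = 0.786), *Apoa5* (an apolipoprotein that regulates plasma triglyceride, r = 0.723), and *Rusc1* (r = 0.717), also not called.

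Markers of liver cell types, fixed as lists, were summed per library as measures to set beside these values. Of the 8 stellate cell markers, 4 (*Col3a1*, *Lrat*, *Col1a2*, and *Acta2*) were called higher in *Lmna*ADKO vehicle livers by edgeR, and DESeq2 called 5. All 8 had an unadjusted p under 0.05 in edgeR. Of those not called by edgeR, *Col1a1* and *Dcn* had higher means, and *Reln* (38.9 against 44.7 CPM) and *Des* (5.78 against 6.99 CPM) had lower means. The sum, in which *Dcn* weighed most (mean 189 CPM in *Lmna*ADKO vehicle livers), ranged from 231 to 343 CPM in control vehicle livers. In *Lmna*ADKO vehicle livers it ranged from 313 to 480 CPM. With FGF21, edgeR and DESeq2 called 0 of 8, although 5 had an unadjusted p under 0.05, and the sums were 263 to 284 CPM in controls and 286 to 550 CPM in *Lmna*ADKO livers. Of 6 Kupffer cell and macrophage markers, edgeR and DESeq2 called 0 with vehicle and 1 had an unadjusted p under 0.05 (sums of 594 to 822 CPM in control against 421 to 747 CPM in *Lmna*ADKO livers). Likewise 0 were called of 6 neutrophil, 6 lymphocyte, and 6 cholangiocyte markers with vehicle by either tool, with 1, 1, and 3 at an unadjusted p under 0.05. DESeq2 gave no adjusted p for 1 neutrophil and 1 cholangiocyte marker. Of 6 hepatocyte markers, 1 (*Cps1*) was called lower with vehicle, and the sums overlapped (72070 to 127729 against 64467 to 98576 CPM). Of 6 endothelial markers, *Lyve1* was called higher with vehicle, and 4 had an unadjusted p under 0.05 in edgeR. The sums overlapped (217 to 273 CPM in control against 207 to 262 CPM in *Lmna*ADKO livers). Mean *Pecam1* and *Cdh5* were also higher in *Lmna*ADKO vehicle livers. Means of *Stab2* (60.4 against 74.2 CPM), *Kdr* (33.2 against 40.1 CPM), and *Clec4g* (53.5 against 71.8 CPM) were lower. Among adipocyte markers *Cidea* was called higher, while *Adipoq*, *Lep*, *Plin1*, and *Retn* had at most 3 counts in any *Lmna*ADKO library. *Cfd* (adipsin) was 1.48 ± 0.233 CPM (n = 6) in *Lmna*ADKO vehicle and 0.422 ± 0.665 CPM (n = 7) in control vehicle livers, and was not called by edgeR (log2 fold change 1.79, SE 0.626, adjusted p = 0.0568). With vehicle, edgeR called 1 of the 6 adipocyte markers and DESeq2 called 2. The part of these cell types in the levels of *Jun*, *Atf3*, and *Sprr1a* was not tested.

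Other genes around AP-1 were taken from lists. The AP-1 target list holds 24 genes, such as proteases, matrix proteins, and cytokines known to be driven by AP-1 in other settings. In the vehicle contrast, 12 of 24 were called higher (5.12% of all genes were) and 0 lower, with a median log2 fold change of 1.02. This list and the others were chosen with earlier results of these data known, so nothing is read from that share or from how the lists compare. Those with the largest changes and a mean log2 CPM of 0 or more were *Anxa2* (annexin A2, 123 ± 37.7 CPM, n = 6, against 22.04 ± 7.35 CPM, n = 7; log2 fold change 2.48, SE 0.340, adjusted p = 3.19e-05), *Mmp12* (macrophage elastase, 12.5 ± 4.52 against 2.64 ± 3.59 CPM; 2.23, SE 0.566, adjusted p = 0.00963), *Spp1* (osteopontin, 116 ± 38.5 against 32.7 ± 7.28 CPM; 1.83, SE 0.310, adjusted p = 0.000302), and *Tnc* (tenascin C, 4.54 ± 1.17 against 1.31 ± 0.264 CPM; 1.79, SE 0.189, adjusted p = 2.17e-07). The others included *Plau*, *Plaur*, *Mmp13*, *Timp1*, *Ccl2*, *Lgals3*, and *Itgax*. With FGF21, 2 of 24 were called, *Anxa2* (log2 fold change 2.10, SE 0.456, adjusted p = 0.0108) and *Tnc* (1.98, SE 0.275, adjusted p = 6.42e-05), 18 of 24 were above 0, and the median was 0.71. DESeq2 called 7. Several of these genes are also made by macrophages or stellate cells, whose marker sums are given above.

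The other immediate early genes did not move together. Of 33, 5 were called higher and 2 lower in the vehicle contrast, with a median of 0.13. *Ccn2* (connective tissue growth factor) was 12.1 ± 4.03 CPM (n = 6) against 3.17 ± 1.37 CPM (n = 7; log2 fold change 1.93, SE 0.266, adjusted p = 2.19e-05). *Klf6*, a zinc finger factor, was 21.7 ± 4.89 against 9.31 ± 1.43 CPM (1.22, SE 0.148, adjusted p = 1.59e-06), and *Myc* was 5.26 ± 1.23 against 2.74 ± 1.29 CPM (0.95, SE 0.210, adjusted p = 0.00215). *Ier2* fell, with 14.9 ± 2.65 against 31.1 ± 8.81 CPM (-1.06, SE 0.176, adjusted p = 0.000125). *Egr1*, often induced beside *Fos*, had a log2 fold change of -1.35 (SE 0.506, adjusted p = 0.0812) and was not called. With FGF21, 2 were called higher, *Klf6* (1.12, SE 0.193, adjusted p = 0.00107) and *Myc* (1.03, SE 0.278, adjusted p = 0.0298), and 3 lower, among them *Gadd45b* (-1.57, SE 0.279, adjusted p = 0.00198) and *Klf10* (-0.93, SE 0.262, adjusted p = 0.0465). *Gadd45b*, a stress sensor that acts on p38 and JNK signaling, was 12.6 ± 4.25 CPM (n = 3) in control FGF21 and 4.21 ± 1.05 CPM (n = 7) in control vehicle livers (1.58, SE 0.287, adjusted p = 0.0252). In controls, treatment cannot be told apart from the series of animal numbers. *Gadd45b* was 4.28 ± 2.40 CPM (n = 8) in *Lmna*ADKO FGF21 livers.

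Of the 30 kinases, phosphatases, and factors upstream of AP-1, 1 was called with vehicle. It was *Dusp8*, a phosphatase that acts on JNK and p38, with 2.27 ± 0.563 CPM (n = 6) against 0.413 ± 0.372 CPM (n = 7; log2 fold change 2.43, SE 0.327, adjusted p = 7.62e-06), and it was also called with FGF21 (1.81, SE 0.418, adjusted p = 0.0116) together with *Dusp10*, another phosphatase of this kind (0.75, SE 0.215, adjusted p = 0.0445). Of 18 other AP-1 and related bZIP factors, *Jdp2*, a Jun dimerization partner, was called higher with vehicle (3.67 ± 1.33 against 2.24 ± 0.897 CPM; 0.71, SE 0.221, adjusted p = 0.0278), as was *Creb5* at a mean log2 CPM of -1.46. With FGF21, edgeR and DESeq2 called 0 of the 18, and 2 had an unadjusted p under 0.05. Of 10 heat shock genes, edgeR called 0 with vehicle, DESeq2 called 1, and 4 had an unadjusted p under 0.05.

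**Figure D5:**
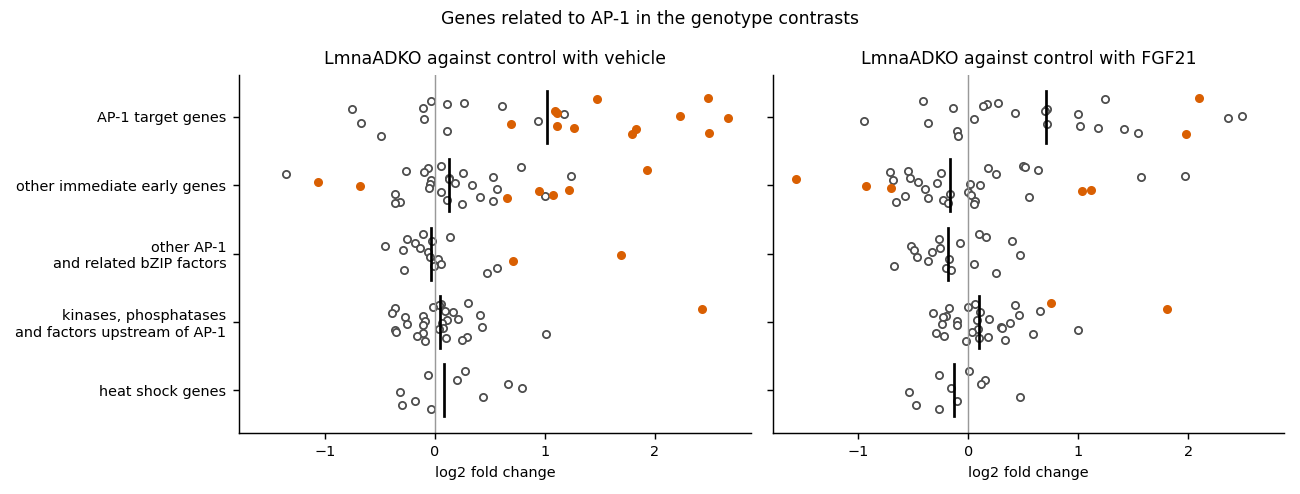
Log2 fold change (horizontal) of each gene on 5 lists in the genotype contrasts with vehicle (left) and with FGF21 (right), with filled points for called genes and a black bar for the list median. The bars of the AP-1 target genes stand at 1.02 and 0.71.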

How the data were processed

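Liver RNA of 24 mice was measured by polyA-selected, strand-specific RNA-Seq. The authors counted reads per gene and deposited whole-number counts without normalization. Per the labels, the submitters' processing notes name cutadapt 4.8, FastQC 0.11.8, STAR 2.7.8a, RSEM 1.3.3, and GRCm38. By the methods, Ensembl 102 annotation was used and genes with a count of 0 in all samples were removed. RSEM estimates need not be whole, and whether they were rounded is not given in the sources used here. The methods and the labels name different sequencing providers.

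Counts of all 23972 genes were scaled by TMM and fitted with edgeR 4.0.16 in R 4.3.3 (robust estimateDisp, glmQLFit, and glmQLFTest) in 1 fit of the 4 groups. P-values were adjusted by the Benjamini-Hochberg method across the whole table, and calls needed both an adjusted p under 0.05 and a change of more than 1.5-fold. SEs were derived from F as |log2 fold change|/√F. In simulated data for the vehicle contrast, 179 of 200 genes changed by a log2 fold change of 1 were recovered, with 3 false calls among 23972 genes. The changed genes were drawn from those with a mean log2 CPM above 0, so the recovery does not cover *Fosb* (-1.37) or *Fosl1* (-2.95). The simulation held no length trend and no difference between series of animal numbers. DESeq2 1.42.0, DESeq2 size factors, filterByExpr, the adjusted p alone, only the groups compared, the series of animal numbers (3 or 4 digits) or the length slope as a covariate, and libraries left out were tried as alternatives. Each library was left out in turn for every contrast, also where its group was not compared. The numbers of alternatives given per gene include these fits. The length slope is that of log2 CPM on log2 exonic length over 9694 genes. Libraries are numbered within groups by animal number. The 67 pairs within groups differed by a chi-square per degree of freedom of at least 14.1, so that no library was merged.

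Genes were located through GENCODE M21 (23926 of 23972 found), and promoter sequences are from RefSeq, GRCm38.p6. *Ccn1* and *Ccn2* were matched through RefSeq synonyms. The 9 genes and all lists were chosen with earlier results of these data known. Named were all 9 genes, up to 4 called genes per list and contrast (by size of the log2 fold change, at a mean log2 CPM of 0 or more), the 3 genes best correlated with each of *Fos*, *Jun*, *Atf3*, and *Sprr1a*, and *Lmna* and *Fgf21* as checks. *Egr1*, *Creb5*, the other called AP-1 targets, the called or paralogous neighbors of *Sprr1a*, and the marker genes at the floor were named after their values were seen.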

Additional observations from a re-analysis of the deposited data

Results flagged for a closer look

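Among 27 combinations of gene and group examined, 1 held a library that stood apart from the rest of its group. *Sprr1a* was 0.598 CPM in control vehicle library 4, from 13 counts, and the nearest other library of that group had 0.197 CPM, a gap of 0.671 of the whole range. Chance sets off about 1 in 20 such groups if values are normally distributed, which was not checked for counts this near the floor. The same library had the highest *Jun* (19.0 CPM) and *Atf3* (5.02 CPM) of the control vehicle group. No difference between the genotypes in the effect of FGF21 was called for any of the 9 genes by edgeR or DESeq2, although DESeq2 gave no adjusted p for 2 of them.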

How the results depend on the processing

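Of the 9 genes, 5 were called with vehicle, but 3 with the series of animal numbers as a covariate and 3 to 5 when 1 library was left out. With FGF21, 2 were called, but 1 with DESeq2 size factors, 1 with only the groups compared, 0 with the number series, 0 without the 3 libraries with a length trend, 1 (*Atf3*, with *Jun* and *Sprr1a* lost) with only the libraries with 4-digit animal numbers, and 0 to 3 when 1 library was left out. Other immediate early genes numbered 7 called with vehicle (4 to 8 with a library left out) and 5 with FGF21, where it was 3 with only the groups compared, 3 with the number series, 3 without the 3 libraries, 3 with only the 4-digit libraries, and 3 to 5 with a library left out. Of the AP-1 targets, 12 were called with vehicle (11 to 12 with a library left out) and 2 with FGF21, where DESeq2 called 7, only the groups compared gave 1, only the 4-digit libraries gave 5, and leaving out a library gave 1 to 4. The causes of these changes were not tested. No called gene among the 9 changed direction in an alternative, and 1369 fold changes of the 9 genes over contrasts and alternatives moved by less than 1 SD of the libraries, against 30 that moved more. The 1369 include fits without a library of a group outside the contrast, which can hardly move its fold change.

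Over all genes with vehicle, 2033 were called, or 3623 on the adjusted p alone. With FGF21, 690 were called, but 344 with only the groups compared, 402 without the 3 libraries, 316 with only the 4-digit libraries, and 339 to 1149 with a library left out. Between FGF21 and vehicle in controls 13 were called, 38 by DESeq2 and 0 with the number series. All 3 control FGF21 libraries have 4 digits and 6 of 7 control vehicle libraries have 3, so treatment and series cannot be told apart there. Among other named genes, the calls of *Klf10* and *Dusp10* with FGF21 were lost in 21 and 17 alternatives, *Jdp2* with vehicle in 9, *Gadd45b* in controls in 8 and with FGF21 in 1, *Myc* with FGF21 in 6, and *Anxa2* and *Dusp8* with FGF21 in 3 each. In the vehicle contrast the number series largely coincides with genotype (6 of 7 control libraries have 3 digits, 5 of 6 *Lmna*ADKO libraries have 4), so that within-series values there rest on single libraries. The 4-digit libraries of the other groups (3 control FGF21, 5 *Lmna*ADKO vehicle, 4 *Lmna*ADKO FGF21) were fitted alone as an alternative added after seeing the data. With FGF21, *Lmna*ADKO against control gave log2 fold changes of 6.18 for *Sprr1a*, 0.88 for *Jun*, and 1.39 for *Atf3*, and *Lmna*ADKO FGF21 against vehicle gave -0.24, -0.31, and 0.20, with 0 of the 9 called. No paired analysis was possible because the groups share no animal numbers. Depth limits *Fosl1*, *Fosb*, and *Sprr1a* in controls, where counts lay near the floor of 3.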
